A study of Homo sapiens with 208 samples.

Results

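The genes described are 5 feedback inhibitors of receptor tyrosine kinase signaling, the Sprouty genes SPRY1, SPRY2 and SPRY4 and the Spred genes SPRED1 and SPRED2. They were taken as the probes whose RefSeq accession belongs to one of these genes, which gave 7 of the 41000 probes of the array and 5 of the 16961 genes with a named probe. All 5 were among the 13261 genes that passed the filter on dim probes. Where a gene had more than 1 probe, the one with the largest variance over all arrays was used, and values are log2 of the quantile normalized signal, so that a difference of 1 is a doubling.

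RNA came from 2 human lung adenocarcinoma cell lines, PC9, whose growth depends on an activating deletion in the EGF receptor and which is sensitive to the EGF receptor inhibitor gefitinib, and PC9GRM2, a gefitinib-resistant clone derived from PC9 by repeated exposure to the drug. After 48 h of starvation, each line received nothing, gefitinib at 0.5 μM from 2 h before time 0, EGF at 100 ng/ml at 0 h, or both agents, and was harvested at 26 time points from 0 to 24 h. Since a time point of a course was measured on a single array, time points stood in for replicates, and p-values measure the spread between time points of 1 culture experiment per line. PC9GRM2 is a single clone and stands for no other resistant line. Each array measured RNA of a whole culture, in which fewer cells with a transcript and less of it per cell cannot be told apart.

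ERK, the last kinase of the cascade from the EGF receptor through RAS, RAF and MEK, induces transcription of genes that damp the same cascade. Sprouty proteins act below the receptor and interfere with adaptor proteins, and Spred proteins bring neurofibromin (NF1), which switches RAS off, to the plasma membrane. Because their transcripts follow ERK activity, they are commonly read as a measure of pathway output in tumors driven by the EGF receptor.

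Per array, 24464 to 35938 features were well above background. Saturated features numbered 183 to 1616 on the PC9 arrays and 0 on the PC9GRM2 arrays, and the 5 genes were saturated on 0 arrays. The 4 treatments of a line at a time point shared a slide, whereas the lines shared 0 of 52 slides and 0 scan days, so that line and scan period cannot be told apart. The epithelial markers EPCAM, CDH1, KRT7, KRT8, KRT18, KRT19 and MUC1 were above background on all arrays, and the lung lineage gene NKX2-1 on 171. PTPRC, the defining marker of blood cells, was above background on 1 array, the fibroblast gene COL3A1 on 6 and the endothelial gene CDH5 on 34.

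The pair of PC9GRM2 arrays labelled 0.5 h of EGF and 0.5 h of EGF with gefitinib went against their labels. Over 11766 genes, the array labelled EGF correlated at 0.770 with the neighbouring time points of its own course and at 0.923 with those of the course given both agents, and the array labelled EGF with gefitinib at 0.765 and 0.932. No other array of the series was closest to a course of the other gefitinib status. SPRY4 was at 5.27 on the array labelled 0.5 h of EGF, between 9.74 at 0 h and 11.04 at 1 h, and at 10.28 on the array labelled 0.5 h of both agents, between 5.98 and 4.67. Both arrays were kept as labelled. Levels and paired tests that use them are given with and without 0.5 h, and the correlations over all arrays include them. The untreated PC9GRM2 array at 11 h also stood apart, with a spread of 0.986 from the mean of its neighbours where the median array had 0.340, and SPRY2 was at its highest untreated PC9GRM2 value there, 10.53.

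Windows of 250 bases before the transcription start were taken from RefSeq for all 5 genes to show what lies upstream of the transcripts that changed most, and the ETS motif CCGGAA, the AP-1 motif TGANTCA, the CRE TGACGTCA, the E-box CACGTG and the TATA motif TATAAA were searched on both strands. These motifs are bound by, among others, the ETS and AP-1 factors that ERK acts on. Shown are the windows of SPRY4, SPRED1 and SPRED2, which had the largest changes with gefitinib, and of SPRY2, with each match in capitals (build GRCh38.p14, 5′ to 3′ on the strand of the gene, the first start listed for each gene).
SPRY4, chr5:142324248-142324497, minus strand: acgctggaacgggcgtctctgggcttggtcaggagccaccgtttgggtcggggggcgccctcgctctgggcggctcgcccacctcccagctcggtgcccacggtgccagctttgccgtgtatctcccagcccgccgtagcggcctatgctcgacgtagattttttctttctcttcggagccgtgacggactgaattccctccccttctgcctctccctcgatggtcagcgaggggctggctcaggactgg
SPRED1, chr15:38252586-38252835, plus strand: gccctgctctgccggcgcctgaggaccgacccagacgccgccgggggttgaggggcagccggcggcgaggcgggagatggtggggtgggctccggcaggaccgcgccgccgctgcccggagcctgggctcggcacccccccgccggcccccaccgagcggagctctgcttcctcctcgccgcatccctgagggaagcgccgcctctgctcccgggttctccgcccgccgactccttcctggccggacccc
SPRED2, chr2:65432600-65432849, minus strand: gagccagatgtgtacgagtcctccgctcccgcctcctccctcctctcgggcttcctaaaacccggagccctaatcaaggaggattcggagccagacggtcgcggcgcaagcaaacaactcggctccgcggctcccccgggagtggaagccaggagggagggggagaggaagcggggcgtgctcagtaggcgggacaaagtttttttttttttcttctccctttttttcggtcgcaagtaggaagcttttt
SPRY2, chr13:80341127-80341376, minus strand: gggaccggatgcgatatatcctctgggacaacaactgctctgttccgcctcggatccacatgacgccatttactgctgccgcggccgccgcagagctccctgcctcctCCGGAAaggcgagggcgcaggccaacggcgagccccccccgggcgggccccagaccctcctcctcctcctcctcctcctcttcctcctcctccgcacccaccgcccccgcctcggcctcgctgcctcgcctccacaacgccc
The SPRY2 window held an ETS match that began 142 bases before the start. A further start of SPRY1 had an ETS match at 67 bases, and a further start of SPRED2 a TATA match at 31 bases. The other windows listed for these genes held none of the 5 motifs. Of 35116 promoters of the same length, 14.5% held the ETS motif, 6.57% the AP-1 motif, 1.65% the CRE, 6.34% the E-box and 10.7% the TATA motif. The share of G and C was 65.6% for SPRY4, 78.4% for SPRED1, 58.8% for SPRED2 and 70.4% for SPRY2, where the median promoter had 58.0%. A match says only that these letters are in the window.

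SPRY4, which restrains signaling from receptor tyrosine kinases to ERK, changed most with gefitinib. In untreated PC9 its level lay between 9.29 and 10.95 with a median of 9.88, and with EGF between 9.36 and 11.17 (median 9.76). With gefitinib it lay between 3.73 and 6.54 (median 4.89), and with both agents between 4.37 and 7.30 (median 5.56). No PC9 array with gefitinib reached the lowest array without it, and 6 of the 26 gefitinib arrays and 2 of the 26 arrays with both agents were not well above background. In PC9GRM2 the untreated level was similar, between 9.50 and 10.62 with a median of 9.92. With gefitinib the median was 8.94, but the range ran from 4.97 to 9.57, and 25 of the 26 gefitinib arrays were below all untreated arrays. With EGF the median was 10.17 (5.27 to 11.51) and with both agents 8.58 (4.67 to 10.28). Without 0.5 h these ranges were 9.69 to 11.51 and 4.67 to 9.23, which did not overlap (25 of 25 below).

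SPRY2, which binds CBL and GRB2, stayed above background on every array. Untreated PC9 had 9.68 to 10.98 (median 10.13) and EGF-treated PC9 9.74 to 11.47 (median 10.19). Gefitinib brought 8.06 to 9.54 (median 8.64), below every untreated array, and both agents 8.09 to 9.86 (median 8.77), which overlapped the EGF course. Untreated PC9GRM2 had 8.91 to 10.53 (median 9.45), and gefitinib-treated PC9GRM2 7.87 to 9.31 (median 8.82), with 15 of 26 arrays below all untreated ones. With EGF it had 8.02 to 10.25 (median 9.53) and with both agents 7.52 to 9.97 (median 8.70). Without 0.5 h these ranges were 9.16 to 10.25 and 7.52 to 9.30, and 23 of 25 arrays with both agents were below all EGF arrays, against 4 of 26 with it. The PC9GRM2 courses overlapped either way.

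SPRY1, best known for restraining receptor signaling in the developing kidney, moved least with gefitinib. Its medians in PC9 were 9.45 untreated (8.87 to 10.24), 9.33 with EGF (8.78 to 10.20), 8.71 with gefitinib (8.40 to 9.46) and 8.75 with both (8.29 to 9.49). In PC9GRM2 they were 9.51 untreated (8.52 to 9.89), 9.59 with EGF (7.71 to 9.99), 9.19 with gefitinib (7.96 to 9.59) and 9.05 with both (7.63 to 9.53). All courses overlapped, and 18 of 26 gefitinib arrays were below all untreated ones in PC9 against 4 of 26 in PC9GRM2. Without 0.5 h the lowest EGF-treated PC9GRM2 array was at 8.37, and the range with both agents was unmoved.

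SPRED1, which recruits NF1 to the membrane, was near the detection limit in gefitinib-treated PC9. Untreated PC9 had 5.19 to 8.12 (median 6.62), with 25 of 26 arrays above background, and EGF-treated PC9 5.81 to 8.26 (median 6.64). With gefitinib the level lay between 1.88 and 6.38 (median 3.34) and with both agents between 2.08 and 6.66 (median 3.55), with 6 and 8 of 26 arrays above background. These courses overlapped only through the earliest time points, and 22 gefitinib arrays were below all untreated ones. In PC9GRM2 the median was higher in every course, with 7.16 to 8.55 (median 7.87) untreated and 7.15 to 8.67 (median 8.02) with EGF. With gefitinib it had 4.44 to 7.90 (median 7.20), and with both agents 4.58 to 8.05 (median 7.12). Without 0.5 h the EGF range began at 7.29 and that with both agents ended at 7.78.

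SPRED2, the other Spred gene measured, encodes a protein with the same NF1-binding domain. In PC9 it lay between 7.31 and 9.05 (median 8.00) untreated and between 7.18 and 9.29 (median 8.11) with EGF. Gefitinib arrays lay between 2.42 and 7.47 (median 4.26) and those with both agents between 3.18 and 8.19 (median 4.90), with 11 and 15 of 26 above background. In PC9GRM2 it had 6.80 to 8.70 (median 7.90) untreated, 6.96 to 9.07 (median 8.09) with EGF, 4.47 to 8.20 (median 7.17) with gefitinib and 4.27 to 8.13 (median 7.06) with both, and leaving out 0.5 h moved neither that range nor the range with EGF. For each of the 5 genes and in both lines, the medians of the untreated and EGF courses were neighbours in the order of levels and their ranges overlapped, and the same held for the gefitinib course and the course with both agents.

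**Figure D1:**
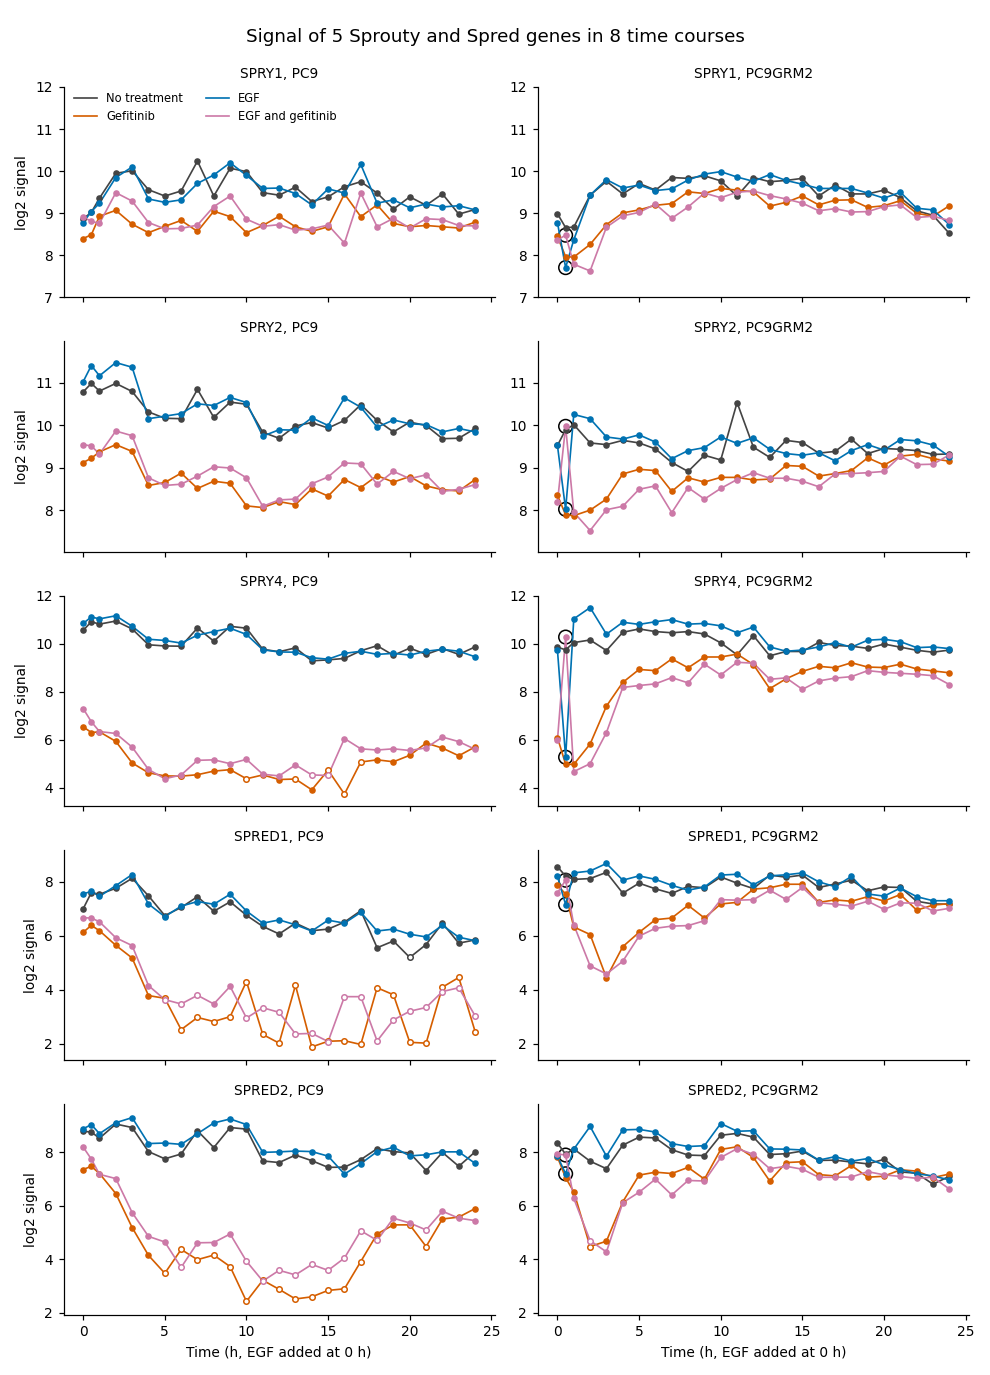
Level of each of the 5 genes (log2 normalized signal, y axis) against time (h, EGF added at 0 h) in the 4 courses of PC9 and of PC9GRM2, 1 point per array. Open symbols are not well above background and black rings mark the 2 PC9GRM2 arrays labelled 0.5 h that went against their labels. SPRY4 stays between 3.73 and 6.54 in gefitinib-treated PC9, and climbs from 4.97 at 1 h to 9.57 at 11 h in gefitinib-treated PC9GRM2.

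Gefitinib was compared with no treatment at matched time points to ask how far the inhibitor lowered each transcript. In PC9 all 5 genes fell, on 26 of 26 time points each, where 72.2% of all genes tested passed in either direction and 37.4% fell (limma, Benjamini-Hochberg adjustment over 13261 genes). SPRY4 fell by 5.00 ± 0.13 on the log2 scale (SE, n = 26, adjusted p = 8.79e-22), the second lowest mean difference of all genes tested. SPRED2 fell by 3.58 ± 0.25 (adjusted p = 1.1e-12) and SPRED1 by 3.09 ± 0.23 (adjusted p = 2.34e-12). SPRY2 fell by 1.57 ± 0.07 (adjusted p = 3.4e-17) and SPRY1 by 0.71 ± 0.08 (adjusted p = 2.98e-09). The median of the 5 genes was -3.09, and that of all genes tested -0.03. Levels did not overlap between the untreated and gefitinib courses for 2 of the 5 genes, SPRY2 and SPRY4, where they did not for 1.56% of all genes.

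Dim arrays give only an upper limit for the gefitinib level. With those arrays set to the lowest signal well above background, the mean differences in PC9 were -4.95 for SPRY4, -3.18 for SPRED2 and -2.06 for SPRED1. Some time windows had no array above background. There untreated PC9 was 7.19-fold (SPRED1, 5 to 14 h), 2.42-fold (SPRED1, 15 to 24 h) and 18.8-fold (SPRED2, 5 to 14 h) above the level so set. These folds are set against the dimmest signal of any probe that still counted as detected. That limit is lenient, since SPRED2 at 5.28 (20 h) in the same course was not well above background. The folds are therefore not strict lower bounds. A second SPRED1 probe, not used in the tests, differed by -2.39. A second SPRED2 probe differed by -0.37, and was above background on 8 of 26 untreated and 4 of 26 gefitinib arrays of PC9. With the mean of both probes the SPRED2 difference was -1.98 and still passed.

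In PC9GRM2 gefitinib also lowered all 5 genes, where 66.5% of all genes passed and 34% fell. SPRY4 fell by 1.61 ± 0.25 (lower at 25 of 26 time points, limma adjusted p = 2.07e-06). SPRED1 fell by 0.88 ± 0.16 (25 of 26, adjusted p = 2.06e-05), SPRED2 by 0.82 ± 0.16 (22 of 26, adjusted p = 3.52e-05), SPRY2 by 0.73 ± 0.11 (26 of 26, adjusted p = 1.43e-06) and SPRY1 by 0.37 ± 0.07 (24 of 26, adjusted p = 4.17e-05). Levels overlapped between the untreated and gefitinib courses for each of the 5 genes, where 0.83% of all genes did not overlap. The differences of neighbouring time points were correlated in PC9GRM2, from 0.52 for SPRY1 to 0.84 for SPRY4 where the median gene had 0.26, and with the variance inflated for this SPRY4 (adjusted p = 0.116) and SPRED2 (adjusted p = 0.126) no longer passed.

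The time course of this response differed between the lines, which asks whether the fall held or faded. At 0 h, after 2 h of gefitinib, SPRY4 was 4.02 below its untreated value in PC9 and 3.77 below it in PC9GRM2, on 1 pair of arrays each. The lowest SPRY4 difference came at 10 h in PC9 (-6.28, on a gefitinib array not well above background) and at 1 h in PC9GRM2 (-5.08). SPRY4 stayed more than 1 below the untreated level at 26 of 26 time points in PC9 and at 14 of 26 in PC9GRM2, where it first came above that line at 9 h. Read array by array, SPRY4 in gefitinib-treated PC9GRM2 was at 4.98 at 0.5 h, 5.82 at 2 h, 7.40 at 3 h, 8.39 at 4 h and 8.93 at 5 h. Its untreated level over the same hours stayed between 9.72 and 10.62.

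In PC9GRM2 the Spred genes reached their lowest differences later than SPRY4. At 0 h the SPRED1 difference was -0.87 in PC9 and -0.70 in PC9GRM2, and that of SPRED2 -1.43 and -0.52. In that line SPRED2 was lowest at 2 h (-3.19) and SPRED1 at 3 h (-3.90), and both first came above -1 at 7 h. In PC9 SPRED2 reached -6.44 at 10 h, the same time point as SPRY4, and SPRED1 -4.95 at 17 h. For each of these PC9 lows the gene was not well above background on the gefitinib array. The same held for SPRED2 at 2 h in PC9GRM2. The size and the time of these lows are therefore uncertain. SPRY2 in PC9GRM2 was lowest at 1 h (-2.13) and SPRY1 at 2 h (-1.17), and both came above -1 at 4 h.

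**Figure D2:**
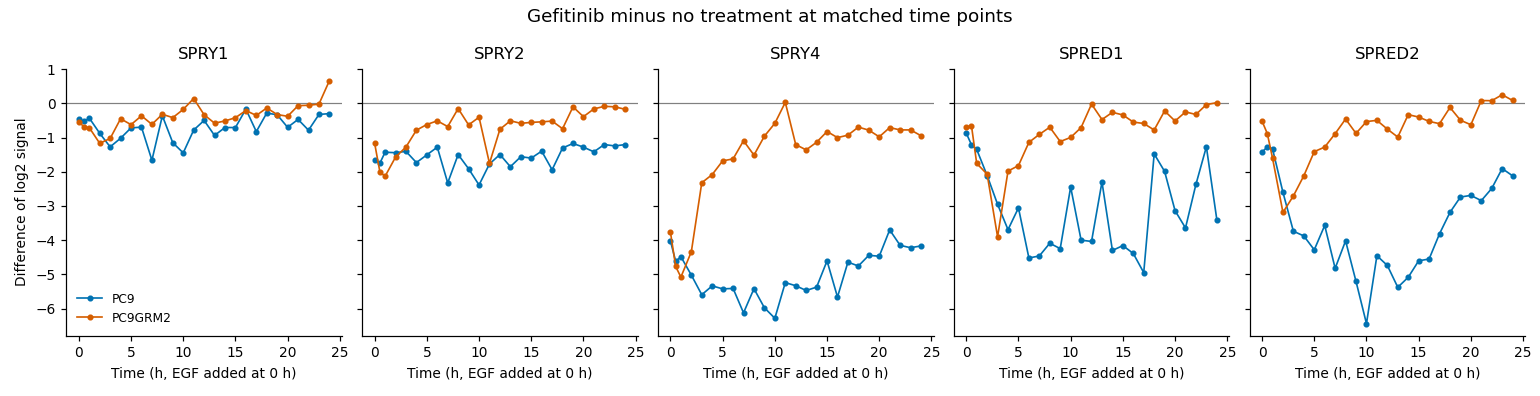
Gefitinib minus no treatment (log2, y axis) against time (h) for each gene, with 1 point per time point and line. Points are drawn whether or not the gefitinib array was well above background. In gefitinib-treated PC9, 20 arrays for SPRED1, 15 for SPRED2 and 6 for SPRY4 were not well above background. In gefitinib-treated PC9GRM2 this held for 1 array, for SPRED2. At 24 h the PC9GRM2 differences lie between -0.95 (SPRY4) and 0.66 (SPRY1), while SPRY4 in PC9 is lowest at 10 h (-6.28) and at -4.17 at 24 h.

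Window means of the same differences put numbers on this. In PC9GRM2 the SPRY4 difference went from -3.72 at 0.5 to 4 h (n = 5) to -1.11 at 5 to 14 h (n = 10) and -0.84 at 15 to 24 h (n = 10). The late minus early contrast was 2.88 ± 0.36 (limma adjusted p = 1.06e-06). It was 1.87 ± 0.26 for SPRED2 (adjusted p = 4.92e-06), 1.71 ± 0.32 for SPRED1 (adjusted p = 0.00016), 1.22 ± 0.21 for SPRY2 (adjusted p = 5.94e-05) and 0.68 ± 0.16 for SPRY1 (adjusted p = 0.00135). All 5 genes passed, where 36.2% of all genes did. In the late window only SPRY4 (-0.84, adjusted p = 0.000914) and SPRY2 (-0.34, adjusted p = 0.0166) were still below the untreated course by this test, against -0.36 for SPRED1 (adjusted p = 0.093), -0.23 for SPRED2 (adjusted p = 0.194) and -0.13 for SPRY1 (adjusted p = 0.208), where 64.1% of all genes passed.

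In PC9 the late minus early contrast passed for 0 of the 5 genes with limma, where 49% of all genes passed, and 1 of the 5, SPRY4, had an unadjusted p under 0.05. SPRY4 had -5.01 early, -5.61 in the middle window and -4.48 late (contrast 0.53 ± 0.24, limma adjusted p = 0.0757). With the windows 0.5 to 6 h and 19 to 24 h this contrast was 0.93 and passed (adjusted p = 0.00388). SPRED2 had -2.56, -4.80 and -3.10, and SPRED1 -2.26, -3.75 and -3.08. Both had their lowest window mean in the middle of the course, when their arrays were at or below the detection limit. SPRY2 had -1.55, -1.76 and -1.38, and SPRY1 -0.83, -0.90 and -0.49.

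The difference of the gefitinib effects, PC9GRM2 minus PC9, was tested directly. It was above 0 for all 5 genes, where 34.1% of all genes passed and 17.5% were higher in PC9GRM2. SPRY4 had 3.39 ± 0.30 (higher at 24 of 26 time points, limma adjusted p = 1.91e-09), the fourth highest value of all genes tested. SPRED2 had 2.76 ± 0.29 (24 of 26, adjusted p = 4.42e-08), SPRED1 2.22 ± 0.29 (24 of 26, adjusted p = 7.8e-07), SPRY2 0.84 ± 0.12 (23 of 26, adjusted p = 3.21e-06) and SPRY1 0.34 ± 0.08 (21 of 26, adjusted p = 0.00264). The second SPRED1 probe gave 1.49, the dim second SPRED2 probe 0.11, and the mean of both SPRED2 probes 1.44, which still passed. For the Spred genes the size depends on dim PC9 arrays.

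**Figure D3:**
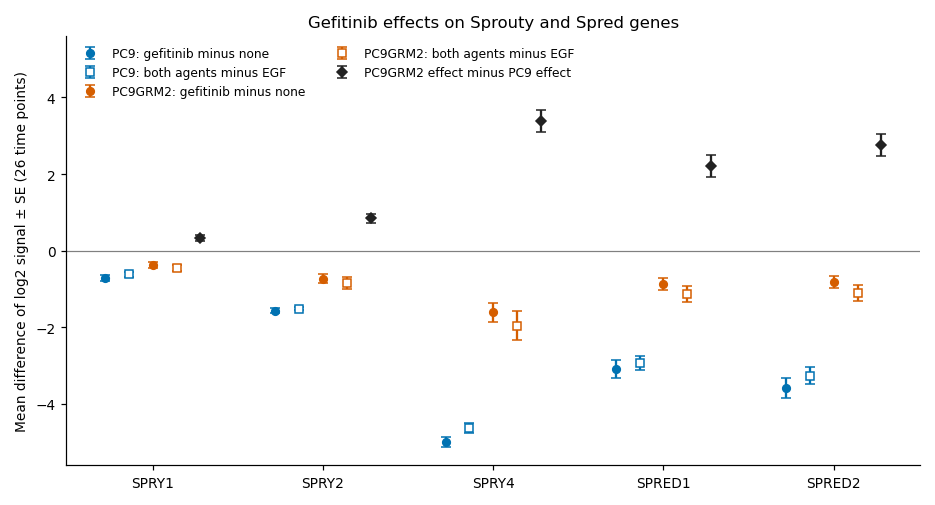
Mean difference between gefitinib and no treatment (log2, with SE) of each gene in PC9 and in PC9GRM2 over the 26 time points. Also shown are both agents minus EGF in each line, and the PC9GRM2 minus PC9 difference of the effects of gefitinib alone. The means of gefitinib minus no treatment lie from -5.00 (SPRY4 in PC9) to -0.37 (SPRY1 in PC9GRM2), and each PC9 mean is lower than that of PC9GRM2. The differences of effects lie above 0, from 0.34 (SPRY1) to 3.39 (SPRY4).

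By window, the effects of gefitinib in the 2 lines did not differ past the threshold at 0.5 to 4 h for any of the 5 genes, where 1% of all genes passed. SPRY4 had 1.29 ± 0.41 there (limma adjusted p = 0.131) and SPRED1 0.19 ± 0.47 (adjusted p = 0.916), which does not show that the lines were alike this early. By unadjusted p, SPRY4 alone was below 0.05. At 5 to 14 h the difference passed for all 5 genes (19.7% of all genes), from 0.52 for SPRY1 to 4.49 for SPRY4, with SPRED2 at 4.00 and SPRED1 at 2.93. At 15 to 24 h it passed for all 5 again (34.6% of all genes), with SPRY4 at 3.64, SPRED2 at 2.87, SPRED1 at 2.72, SPRY2 at 1.04 and SPRY1 at 0.36. The growth from the early to the late window passed for 4 of the 5 genes (16.3% of all genes), from 1.04 ± 0.26 for SPRY2 to 2.53 ± 0.58 for SPRED1, and not for SPRY1 (0.34, adjusted p = 0.324). With the windows 0.5 to 6 h and 19 to 24 h it passed for 1 gene, SPRY2 (1690 of all genes). These window tests of the difference were chosen after the time courses had been seen.

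Gefitinib was also compared within EGF-treated cells, to ask whether added ligand changed the response. In PC9 all 5 genes fell, where 78.9% of all genes passed, with SPRY4 at -4.63 ± 0.13, SPRED2 at -3.27 ± 0.22, SPRED1 at -2.93 ± 0.18, SPRY2 at -1.51 ± 0.04 and SPRY1 at -0.62 ± 0.06. Levels did not overlap for 1 of the 5 genes, SPRY4, where 2.37% of all genes did not. Whether these differed from the values without EGF was not tested. In PC9GRM2 all 5 fell as well, where 74.4% of all genes passed, with SPRY4 at -1.96 ± 0.38, SPRED1 at -1.13 ± 0.20, SPRED2 at -1.11 ± 0.21, SPRY2 at -0.85 ± 0.16 and SPRY1 at -0.46 ± 0.08. Without 0.5 h, where both arrays went against their labels, the values were -2.24 for SPRY4, -1.22 for SPRED1, -1.18 for SPRED2, -0.96 for SPRY2 and -0.51 for SPRY1, all past the threshold (75.3% of all genes). Levels overlapped for each of the 5 genes with all arrays, where 0.0151% of all genes did not overlap, and without 0.5 h did not for SPRY4, where 2.43% did not. With the variance inflated for autocorrelation SPRED2 no longer passed (all arrays, limma adjusted p = 0.0744).

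The late minus early contrast under EGF, chosen after the time courses had been seen, was positive in PC9GRM2 without 0.5 h for all 5 genes (50.7% of all genes), with SPRY4 at 3.57 ± 0.45 (limma adjusted p = 6.89e-07), SPRED2 at 2.66 ± 0.32, SPRED1 at 2.60 ± 0.30, SPRY2 at 1.57 ± 0.17 and SPRY1 at 0.72 ± 0.16. With 0.5 h, 2 of the 5 passed (48.4% of all genes), SPRED2 at 1.90 ± 0.47 and SPRED1 at 1.80 ± 0.48, and SPRY4 had 1.58 ± 1.06. In PC9 3 of the 5 passed (60.5% of all genes), with SPRY4 at 0.92 ± 0.19, SPRY2 at 0.35 ± 0.09 and SPRED1 in the opposite direction at -1.13 ± 0.35.

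EGF was compared with no treatment to ask whether ligand induced the inhibitors in cells whose receptor is already active. In PC9, 3 of the 5 genes were higher with EGF, where 25.6% of all genes passed and 11.3% were higher. SPRED2 differed by 0.21 ± 0.06 (higher at 20 of 26 time points, limma adjusted p = 0.00861), SPRED1 by 0.16 ± 0.05 (16 of 26, adjusted p = 0.0313) and SPRY2 by 0.12 ± 0.05 (18 of 26, adjusted p = 0.0489). SPRY4 (0.03 ± 0.04, adjusted p = 0.652) and SPRY1 (-0.03 ± 0.05, adjusted p = 0.735) did not pass. All 3 calls were lost with the courses unpaired, and SPRY2 and SPRED1 also without 0 h. The EGF and gefitinib comparisons share the untreated arrays.

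In PC9GRM2 0 of the 5 genes passed with EGF when all arrays were used, with limma or with the methods' t-test, where 9.07% of all genes did by limma. By unadjusted p, 1 of the 5, SPRED2, was under 0.05. SPRY4 had 0.16 ± 0.19 (adjusted p = 0.672) and was higher at 22 of 26 time points. Without 0.5 h, where 11.6% of all genes passed, SPRY4 was higher by 0.35 ± 0.07 (22 of 25 time points, limma adjusted p = 0.00125) and SPRED2 by 0.19 ± 0.06 (20 of 25, adjusted p = 0.0468). At 2 h SPRY4 was at 11.51 with EGF against 10.16 untreated, and SPRED2 at 8.96 against 7.66. Over 1 to 4 h (n = 4, 2.36% of all genes), SPRY4 was higher by 0.86 ± 0.12 (limma adjusted p = 0.000525), SPRED2 by 0.59 ± 0.12 (adjusted p = 0.00912) and SPRED1 by 0.33 ± 0.09 (adjusted p = 0.0476). SPRY2 (0.26 ± 0.16) and SPRY1 (-0.03 ± 0.09) did not pass. In PC9 over 0.5 to 4 h 0 of the 5 passed by limma (n = 5, 0.528% of all genes), with 2, SPRY2 and SPRY4, at an unadjusted p under 0.05. The differences there were 0.20 ± 0.09 for SPRY4, 0.23 ± 0.13 for SPRED2, -0.02 ± 0.11 for SPRED1, 0.34 ± 0.10 for SPRY2 and -0.07 ± 0.11 for SPRY1.

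**Figure D4:**
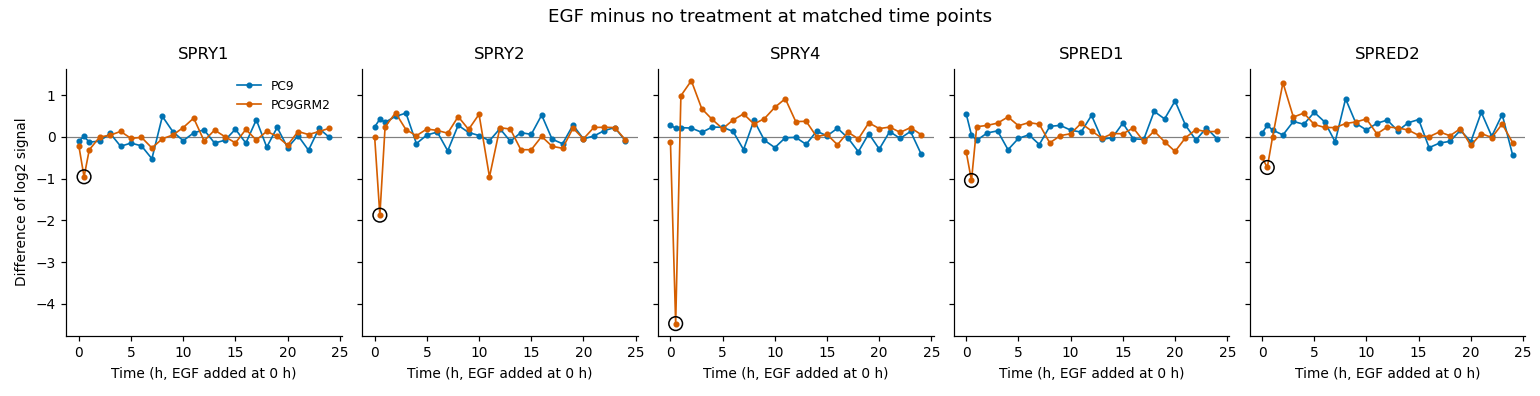
EGF minus no treatment (log2, y axis) against time (h) for each gene in PC9 and PC9GRM2, 1 point per time point, with black rings on the array labelled 0.5 h of EGF that went against its label. Most points lie within 1 of 0, and SPRY4 in PC9GRM2 rises to 1.35 at 2 h.

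The EGF effects of the 2 lines did not differ past the threshold for any of the 5 genes with limma or the methods' t-test, nor by unadjusted p (0 of 5), where 1.34% of all genes passed. Without 0.5 h, where 1.37% passed, SPRY4 did, with an EGF effect 0.32 ± 0.08 larger in PC9GRM2 (limma adjusted p = 0.0394). Under gefitinib, 0 of the 5 genes passed with EGF in PC9 (3 by unadjusted p), where 0.0452% of all genes passed, and the mean differences ran from 0.07 for SPRY1 to 0.52 ± 0.11 for SPRED2 (adjusted p = 0.0559). In PC9GRM2 under gefitinib 0 of the 5 passed with all arrays (2 by unadjusted p), where 3.11% of all genes did. Without 0.5 h 4 of the 5 fell with EGF (7.13% of all genes). SPRY4 fell by 0.40 ± 0.06 (lower at 22 of 25 time points, limma adjusted p = 0.000285), SPRED1 by 0.22 ± 0.06, SPRY2 by 0.21 ± 0.04 and SPRY1 by 0.13 ± 0.04, and SPRED2 had -0.17 ± 0.06 (adjusted p = 0.0673). Both EGF comparisons in PC9GRM2 thus turned on the arrays labelled 0.5 h.

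PC9GRM2 was set against PC9 time point by time point, once for each treatment. Untreated, 2 of the 5 genes differed, where 68.1% of all genes did. SPRED1 was higher in PC9GRM2 by 1.24 ± 0.14 (26 of 26 time points, limma adjusted p = 4.15e-09) and SPRY2 was lower, at -0.75 ± 0.10 (25 of 26, adjusted p = 1.06e-07). SPRY4 (-0.03 ± 0.11), SPRY1 (-0.04 ± 0.07) and SPRED2 (-0.22 ± 0.13) did not pass. With gefitinib 4 of the 5 were higher in PC9GRM2, where 64.7% of all genes passed, SPRED1 by 3.46 ± 0.34, SPRY4 by 3.35 ± 0.36, SPRED2 by 2.54 ± 0.37 and SPRY1 by 0.30 ± 0.10, and SPRY2 had 0.09 ± 0.14. At the 2 windows from 5 h on in which no PC9 array detected it, SPRED1 in gefitinib-treated PC9GRM2 was 9.32-fold and 6.10-fold above the same detection limit. SPRED2 was 11.9-fold above it at 5 to 14 h, and these folds are not strict lower bounds either.

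With EGF 2 of the 5 genes differed between the lines (69.8% of all genes), with SPRED1 at 1.15 ± 0.12 and SPRY2 at -0.88 ± 0.13 (PC9GRM2 minus PC9). Without 0.5 h, where 68.9% of all genes passed, they were at 1.21 and -0.78, and SPRY4 passed too, at 0.34 ± 0.09 (limma adjusted p = 0.00106). With both agents 3 of the 5 differed (67.7% of all genes), SPRED1 by 2.95 ± 0.34, SPRY4 by 2.77 ± 0.32 and SPRED2 by 1.89 ± 0.33. Without 0.5 h the same 3 differed (66.7% of all genes), by 3.01, 2.74 and 1.96. The line comparisons use the same arrays as the gefitinib comparisons and do not add to them, and line cannot be told apart from slide and scan day in any of them.

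Change over the 24 h was tested within each course by a spline, where 63.7% to 83.1% of all genes passed per course. In untreated PC9 all 5 genes changed (66.5% of all genes), SPRED1 by a fitted range of 1.72 with its highest value at 2 h and its lowest at 24 h, and SPRY4 by 1.29 between 0 h and 18 h. With gefitinib, 4 of the 5 changed in PC9 (77.8% of all genes) and 5 in PC9GRM2 (63.7%). The largest fitted range in PC9 was that of SPRED2, 4.71, highest at 0 h and lowest at 11 h, and SPRY1 had 0.33 (adjusted p = 0.477). SPRED2 was not well above background on any gefitinib-treated PC9 array at 5 to 14 h, so that low rests on dim signal. The largest fitted range in PC9GRM2 was that of SPRY4, 4.46, with the fitted curve lowest at 0 h and highest at 8 h. The arrays themselves were lowest at 1 h (4.97) and highest at 11 h (9.57). Untreated PC9GRM2 had 4 of the 5 past the threshold (67.5% of all genes), without SPRY2 (adjusted p = 0.324), which passed without the 11 h array.

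Genes of the same pathway were read beside the inhibitors. Of 16 genes induced by ERK, gefitinib lowered 16 in PC9, where 37.4% of all genes fell, with a median of -2.86, DUSP6, an ERK phosphatase, at -6.81 and ETV5, an ETS factor, at -4.83. In PC9GRM2 it lowered 13 of 16, where 34% of all genes fell, with a median of -1.15, FOSL1 at -2.77 and DUSP6 at -2.16. The difference of the gefitinib effects was higher in PC9GRM2 for 14 of 16 (17.5% of all genes), with DUSP6 at 4.65 and EGR1 at 4.38. The SPRY4, SPRED1 and SPRED2 differences in PC9 were below the list's median and those of SPRY2 and SPRY1 above it. For the Spred genes this place depends on dim arrays and probe choice. With dim arrays at the detection limit, SPRED1 (-2.06) was above the median and SPRED2 (-3.18) still below it. By the second probes, SPRED1 (-2.39) and SPRED2 (-0.37, a dim probe) were both above it. With EGF 10 of 16 were higher in PC9 (11.3% of all genes), EGR1 by 0.83 and HBEGF, a ligand of the receptor, by 0.58. In PC9GRM2 2 of 16 were higher (4.16% of all genes), or 8 of 16 without 0.5 h, where 11.6% of all genes passed in either direction.

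Of 21 partner genes of Sprouty and Spred proteins, 20 were tested. In PC9 gefitinib lowered 10 and raised 7, where 37.4% of all genes fell and 34.8% rose, with a median of -0.11. CBL, the ubiquitin ligase that SPRY2 binds, fell by 1.65, and the adaptor GRB2 by 1.04, while the RAS activator SOS2 rose by 1.24. In PC9GRM2 it lowered 8 and raised 7, where 34% of all genes fell and 32.5% rose, with a median of -0.14, and CBL fell by 0.95. NF1, which Spred proteins need to act on RAS, was higher with gefitinib by 0.49 ± 0.20 in PC9 (15 of 26 time points, limma adjusted p = 0.0316) and by 0.47 ± 0.12 in PC9GRM2 (20 of 26, adjusted p = 0.00123), and these effects differed by -0.02 ± 0.18.

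Over all arrays, the gene whose level was most like that of SPRY4 was DUSP6 (Pearson's r = 0.95), followed by EPHA2 (0.93) and TNS4 (0.92). For SPRED2 it was SLC20A1 (0.90), with SPRY4 next (0.90), for SPRED1 TLR4 (0.91), for SPRY2 MARS2 (0.90) and for SPRY1 BAZ1A (0.75). Among the 5 genes the highest correlation was that of SPRY4 and SPRED2 (0.90) and the lowest that of SPRY2 and SPRED1 (0.48). With the mean of each course taken off, which leaves the movement within courses, the gene most like SPRY4 was FOS (0.73), with SPRY2 next (0.68), and SPRED1 and SPRED2 correlated at 0.76. These values describe arrays that share slides and neighbouring time points and carry no test.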

How the data were processed

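RNA of each sample was hybridized to 1-colour Agilent 44K arrays (Cy3), 1 array per line, treatment and time point. Per the file headers, the deposited signal intensities were written by Feature Extraction 10.5.1.1, a later version than the paper names, after background subtraction and without normalization between arrays, and the 0 or 1 flags for detection, saturation and outliers are deposited with them. Intensities quantile normalized by the authors, deposited as a separate table, served as an alternative. All its columns were mapped to samples (0 were not).

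Intensities were quantile normalized here over all arrays, floored at 1 and converted to log2. Outlier spots (0.263% of values) were removed and spots of a probe averaged. Of 41000 probes, 24794 matched a gene symbol by RefSeq accession (GRCh38.p14, names only). The probe with the largest variance stood for a gene, and genes well above background on at least 13 of 26 arrays of a course were tested (3700 were left out). With 1 array per time point, precision rests on the number of time points.

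Paired differences at matched time points were tested against 0 with limma 3.58.1 in R 4.3.3 (two-sided, Benjamini-Hochberg over 13261 genes at 0.05). The pairing rests on the shared slide and the time point. Windows were means over 0 h, 0.5 to 4 h, 5 to 14 h and 15 to 24 h. Change over time was an F-test of a natural spline with 4 degrees of freedom. The steps were checked on simulated data. Alternatives covered scaling, background correction (normexp with offset 50, on median signals because no mean signal was used here), probe choice, filter, floor, outlying points, the methods' t-test, pairing, scan day and time points. Named beyond the 5 genes were, per list, the 2 largest called changes each way, NF1, and the 3 genes most correlated with each member. A gene that this rule names is not reported here. The genes, the ERK and partner lists and the motifs were chosen with earlier results of these data known.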

Additional observations from a re-analysis of the deposited data

Results flagged for a closer look

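The gefitinib effect differed between the lines for all 5 genes by the test of the difference itself (PC9GRM2 minus PC9, log2, limma over 26 time points). The difference was 3.39 for SPRY4, 2.76 for SPRED2, 2.22 for SPRED1, 0.84 for SPRY2 and 0.34 for SPRY1, against 34.1% of all genes past the same threshold. For the Spred genes, 20 (SPRED1) and 15 (SPRED2) of the 26 gefitinib-treated PC9 arrays were not well above background. With dim arrays set to the detection limit, the gefitinib effects in PC9 were smaller, -2.06 for SPRED1 and -3.18 for SPRED2. In PC9GRM2 they were -0.88 and -0.81 when set in this way. The difference between the lines was not tested with these values. Line and scan period cannot be told apart.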

How the results depend on the processing

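Of the values recomputed under other settings, 1515 kept direction and side of the threshold (counts of genes, within 1.5 times), 50 were no longer past it, 19 newly passed and 1 reversed, and 37 changed sign while passing under neither setting. The fall of all 5 genes with gefitinib in PC9, with or without EGF, kept direction and call in 85 of 85 values each.

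For the other comparisons, the number of the 5 genes past the threshold moved by over 1.5 times as follows, and by 1 gene in some others. The EGF effect in PC9 went from 3 to 0 with the courses unpaired (no replicate block, 401 of all genes). It also went to 0 with time points 3 h apart or with the last 13 time points. It went to 1 with the mean of all probes, the variance inflated for autocorrelation, the first 13 time points or without 0 h. Unpaired, the difference of gefitinib effects passed for 4 genes, without SPRY1 (adjusted p = 0.109), and no other call over a whole course changed. With autocorrelation allowed for, gefitinib in PC9GRM2 passed for 3 genes, or 4 under EGF, and the line difference with gefitinib for 2. The difference of gefitinib effects passed for 3 genes over the first 13 time points. One-sided tests for higher in PC9GRM2 left 1 gene in the untreated (3978 of all genes) and 1 in the EGF line difference (4220). With outlying points replaced by a spline, EGF under gefitinib passed for 2 genes in PC9 (74 of all genes) and 1 in PC9GRM2. With scan day as a block, change over time with both agents in PC9GRM2 passed for 3 genes (4555 of all genes). Other windows gave 1 gene for late minus early gefitinib in PC9 (6199 of all genes). They gave 1 for the late minus early difference of gefitinib effects (1690 of all genes). Counts without such a number show only how the calls depend on a setting, and do not set these genes against others.

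Without 0.5 h in PC9GRM2, EGF passed for 2 genes, EGF under gefitinib for 4, the difference of EGF effects for 1, change over time with EGF for 5 and late minus early EGF for 1. That gene was SPRY4, whose late minus early EGF contrast reversed from 0.32 to -0.75. The arrays went against their labels, and the cause was not tested.

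Counts of all genes past the threshold also moved by over 1.5 times at their lowest or highest setting. The ranges were 5395 to 9779 for gefitinib in PC9GRM2 (8825 as reported), 401 to 4030 for EGF in PC9 (3398), 14 to 1923 for EGF in PC9GRM2 (1203), 0 to 74 for EGF under gefitinib in PC9 (6) and 0 to 945 in PC9GRM2 (412), 1043 to 5410 for the difference of gefitinib effects (4523) and 0 to 388 for the difference of EGF effects (178). They were 24 to 143 for late minus early EGF in PC9GRM2 (36), and with one-sided tests the 4 line differences had 3935 to 4220 genes. Scan day as a block lowered change over time most, to 3576 from 8447 in gefitinib-treated PC9GRM2 and to 4555 from 8970 with both agents. With no replicate arrays, error between cultures is unknown.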

Other observations

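The remaining family gene with a probe, SPRY3, had 2. Its more variable probe was dim, with 0 to 6 of 26 arrays above background per course, and the gene was therefore not tested. The other probe was above background on all arrays, with course medians from 8.37 to 8.75. Its mean gefitinib difference was 0.25 in PC9 and -0.18 in PC9GRM2, with no test. A probe of SPRED3 was not analysed here.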
